A study of Mus musculus with 12 samples.

Results

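The question was whether, and in which genes, the effect of an Fzd5 knockout on the intestinal epithelium differed between day 1 and day 3, and which genotype had moved when it did. All 12 of the 12 libraries of the series entered, chosen by their genotype and time labels: 4 groups (Ctrl day 1, Ctrl day 3, Fzd5KO day 1 and Fzd5KO day 3) of 3 libraries each. Bulk RNA-seq had been made from total RNA of intestinal epithelial cells of mouse jejunum. Of the 55421 genes listed, 14510 reached at least 1 TPM (a length-scaled share of the transcripts in a library) in at least 3 libraries and were tested. Ctrl is labelled as control and Fzd5KO as a knockout of Fzd5, and the labels give no further allele or agent for either. The labels name neither the Cre or promoter that removed the gene nor the part removed, nor the event from which the days were counted, nor strain, age or hour of collection. Separate animals are not stated, so the spread behind each p-value is that between 3 libraries and may be technical.

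Fzd5 encodes Frizzled 5, a receptor through which Wnt ligands signal to beta-catenin. In the small intestine, Wnt signals maintain the stem cells at the crypt base and the Paneth cells between them. Their daughters divide, move towards the villus and become absorptive enterocytes or one of the secretory cell types.

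For each gene the knockout effect, Fzd5KO minus Ctrl on the log2(TPM + 1) scale, was computed at day 1 and at day 3. The interaction is the day 3 effect minus the day 1 effect, so a positive value means that the knockout stood higher against control at day 3 than at day 1. It equals the change with time in Fzd5KO minus the change with time in Ctrl, which tells which genotype moved. All adjusted p-values are from limma with Benjamini-Hochberg adjustment over the 14510 genes, genes under 0.05 are called, and "rose" and "fell" are used only of called changes. Changes are log2 values, given with their standard error after the ± sign, and this scale understates the change of genes with few TPM. The 5 contrasts share libraries, so their values are set side by side and not correlated.

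The libraries held between 21506 and 24467 genes above 0. TPM carries no read depth, so depth was unknown and no counting interval could be given. The epithelial genes Epcam and Vil1 lay between 802.6 and 1229 TPM and between 639.5 and 1444 TPM, while the leukocyte gene Ptprc lay between 3.28 and 14.0 TPM and the endothelial gene Pecam1 between 0.41 and 1.33 TPM. Ctrl day 1 replicate 1 stood apart from its group on the third principal component (−34.5 against −13.9 and −8.54). Without it, 3563 genes were higher and 2496 lower in the interaction, against 3665 and 2769 with it, the calls of Fzd5, Defa36, Hba-a2 and Mcpt1 were lost, and list counts moved by over 1.5 times only where they were of 1 or 2 members. The median change of all tested genes was 0.0092 in the interaction and 0.11 with time in each genotype.

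Fzd5 itself (ENSMUSG00000045005, chromosome 1, 64730558 to 64737751, minus strand, mm10) stood at 43.5, 49.4 and 46.8 TPM in Ctrl day 1, 68.2, 65.9 and 60.5 in Ctrl day 3, 31.9, 33.1 and 33.1 in Fzd5KO day 1 and 39.7, 37.8 and 38.3 in Fzd5KO day 3. All knockout libraries lay below all control libraries, the direction the labels give, and they still listed Fzd5 transcripts. The interaction was −0.24 ± 0.077 (adjusted p = 0.0275), with Fzd5 rising by 0.47 in Ctrl and by 0.23 in Fzd5KO. The rise in Fzd5KO was lost under each of the other scalings, and its sign turned to −0.03 with quantile normalization. The interaction call was lost with no filter on low genes (adjusted p = 0.0515) and when any of 7 single libraries was left out. Transcripts outside the removed part would still be measured, so these values do not measure the intact gene.

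The knockout effect differed between the days in 6434 of 14510 genes (44.3%). Of these, 3665 were higher at day 3 (25.3% of tested genes) and 2769 were lower (19.1%). At an unadjusted p under 0.05 there were 7405. A difference of more than 1 on the log2 scale was reached by 842 of the higher and 297 of the lower genes. The effect was the larger of the 2 at day 3 in 5694 of the 6434 genes (88.5%), in 82.0% of the higher and 97.1% of the lower ones. The same share was not computed over all tested genes. Of those, 25.0% were called in the knockout contrast at day 1 and 62.8% at day 3. Effects called with opposite signs on the 2 days were held by 869 genes. Those were mostly lower in the knockout at day 1 and higher at day 3 (816 genes). Calls at day 1 were themselves mostly lower, as given next, which favours this direction. The counts of 869 and 816 were not recomputed under other scalings. On day 1 alone the knockout was higher in 309 genes (2.13%) and lower in 3313 (22.8%), a balance that depends on the scaling (8.53% of calls higher, against 48.1%, 58.4% and 37.2% under the 3 other scalings, which are named below). On day 3 it was higher in 3529 (24.3%) and lower in 5584 (38.5%), or 62.8% in either direction.

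Both genotypes contributed to these differences. Among the genes called in the interaction, moves in opposite directions outnumbered moves in the same direction. The interaction is itself the difference of the time changes, so choosing genes by it favours opposite moves. Opposite and shared moves were not counted over all tested genes, so whether the genotypes mostly moved apart cannot be told from these counts. With time alone, 3633 genes rose (25.0%) and 1603 fell (11%) in Ctrl, and 4985 rose (34.4%) and 1525 fell (10.5%) in Fzd5KO, or 36.1% and 44.9% in either direction. Among genes with a higher interaction, 1874 changed with time in Fzd5KO only (51.1%), 245 in Ctrl only (6.68%), and 1195 fell in Ctrl while they rose in Fzd5KO (32.6%). Another 268 changed in both genotypes in the same direction. The median time change of the higher genes was −0.13 in Ctrl and 0.50 in Fzd5KO. Among genes with a lower interaction, 1088 changed in Ctrl only (39.3%), 502 in Fzd5KO only (18.1%), and 806 rose in Ctrl while they fell in Fzd5KO (29.1%). The median time change of the lower genes was 0.34 in Ctrl and −0.24 in Fzd5KO.

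Calls of "only" compare 2 thresholds, while the interaction itself tests that the 2 time changes differ. Those counts depend on how libraries are scaled. For the higher genes the count changing in Fzd5KO only was 999 with quantile normalization, 1225 with median-of-ratios scaling and 912 after rescaling without mitochondrial, predicted, small RNA and the 20 most abundant genes. The count changing in Ctrl only was 598, 571 and 462. For the lower genes the corresponding counts were 1283, 1382 and 1715 in Fzd5KO only and 609 and 514 in Ctrl only with the first 2 scalings. The split of all interaction calls also moved, from 57.0% higher to 49.3%, 55.2% and 36.6%. Rescaling shifted the median interaction of all genes by −0.18, to which changes of that size are relative. Gene groups are therefore described below with the groups whose medians turned sign named as such.

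**Figure D1:**
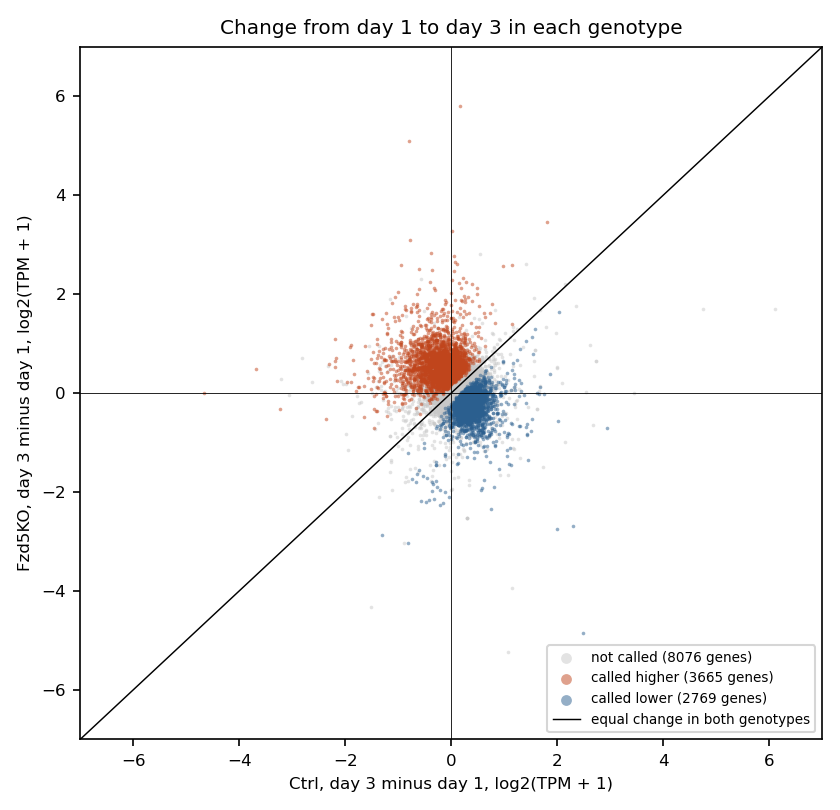
Change from day 1 to day 3 of each tested gene in Ctrl (x axis) and in Fzd5KO (y axis), both in log2(TPM + 1), each point 1 of 14510 genes. Distance from the diagonal is the interaction; called genes above it (3665) and below it (2769) are coloured, and 1195 of the upper ones fell in Ctrl and rose in Fzd5KO.

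In the absorptive brush border the 2 genotypes moved apart. Of 20 brush border hydrolases, which digest sugars and peptides at the villus surface, 20 were higher in the interaction and 0 lower (median 1.20). With time 18 fell and 1 rose in Ctrl (median −0.47), whereas 19 rose and 1 fell in Fzd5KO (median 0.66). Their summed level was 13006 to 13748 TPM in Ctrl day 1 and 8440 to 8918 TPM in Ctrl day 3, and 10844 to 11235 TPM in Fzd5KO day 1 and 18169 to 19233 TPM in Fzd5KO day 3. The 4 ranges do not overlap, and the order of the genotypes at day 1 was reversed at day 3.

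Sis, the disaccharidase sucrase-isomaltase (ENSMUSG00000027790, chromosome 3, 72888557 to 72967863, minus strand), stood at 2108, 2105 and 2044 TPM in Ctrl day 1, 892, 875 and 865 in Ctrl day 3, 1571, 1558 and 1526 in Fzd5KO day 1 and 2387, 2539 and 2445 in Fzd5KO day 3. No 2 groups overlapped. The knockout lay below control at day 1 and above it at day 3, where control was lowest. The interaction was 1.91 ± 0.043 (adjusted p = 2.93e-10), made of a fall of 1.25 in Ctrl and a rise of 0.66 in Fzd5KO. Alpi, the alkaline phosphatase of the enterocyte surface, moved mainly in the knockout, with 459 ± 19.2 TPM in Ctrl day 1, 404 ± 16.0 in Ctrl day 3, 447 ± 6.13 in Fzd5KO day 1 and 911 ± 26.9 in Fzd5KO day 3 (mean ± SD, n = 3). Its interaction was 1.21 ± 0.056 (adjusted p = 2.16e-08). The lowest value of the list was that of Lct, the lactase, at 0.22 ± 0.042 (adjusted p = 0.00133). Lct fell in both genotypes, by 0.31 in Ctrl and 0.092 in Fzd5KO, and its interaction call was lost after rescaling (0.016, adjusted p = 0.757).

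Of 20 structural proteins of the microvillus, 18 were higher in the interaction and 1 lower (median 0.96). In Ctrl 3 rose and 13 fell (median −0.31), and in Fzd5KO 19 rose and 0 fell (median 0.63). Vil1, the actin bundler villin, stood at 970.4 ± 19.6 TPM in Ctrl day 1, 658 ± 15.9 in Ctrl day 3, 923 ± 11.1 in Fzd5KO day 1 and 1403 ± 43.7 in Fzd5KO day 3, with an interaction of 1.16 ± 0.045 (adjusted p = 5.65e-09). The single lower member was Baiap2l1, at −0.18 ± 0.056 (adjusted p = 0.0201), which rose in both genotypes, by 0.63 in Ctrl and 0.45 in Fzd5KO.

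Nutrient transporters followed the same course. Of 21 carriers of sugars, peptides and amino acids, 19 were higher in the interaction and 1 lower (median 1.43), with 2 higher and 18 lower with time in Ctrl (median −0.67) and 21 higher in Fzd5KO (median 0.61). Slc15a1, the proton-coupled carrier PepT1 for small peptides (ENSMUSG00000025557, chromosome 14, 121459621 to 121505252, minus strand), stood at 494, 497 and 477 TPM in Ctrl day 1, 191, 184 and 182 in Ctrl day 3, 371, 369.9 and 361 in Fzd5KO day 1 and 617, 637 and 638 in Fzd5KO day 3. Its 4 groups did not overlap, and Ctrl day 3 was the lowest and Fzd5KO day 3 the highest of them. The interaction was 2.17 ± 0.043 (adjusted p = 2.86e-10), made of a fall of 1.39 in Ctrl and a rise of 0.78 in Fzd5KO. Slc5a1, the sodium-coupled glucose carrier SGLT1, stood at 795 ± 25.2 TPM in Ctrl day 1, 338 ± 8.05 in Ctrl day 3, 656 ± 10.9 in Fzd5KO day 1 and 1039 ± 21 in Fzd5KO day 3, with an interaction of 1.90 ± 0.046 (adjusted p = 3.10e-10). Slc2a5, the fructose carrier GLUT5, and Slc2a7, a related facilitative carrier, had larger interactions, 2.58 ± 0.079 and 2.87 ± 0.11, both with the larger part in Ctrl (falls of 1.63 and 2.17). The lower member was Slc1a1, the glutamate carrier EAAC1, at −0.33 ± 0.077, which rose by 0.53 in Ctrl.

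**Figure D2:**
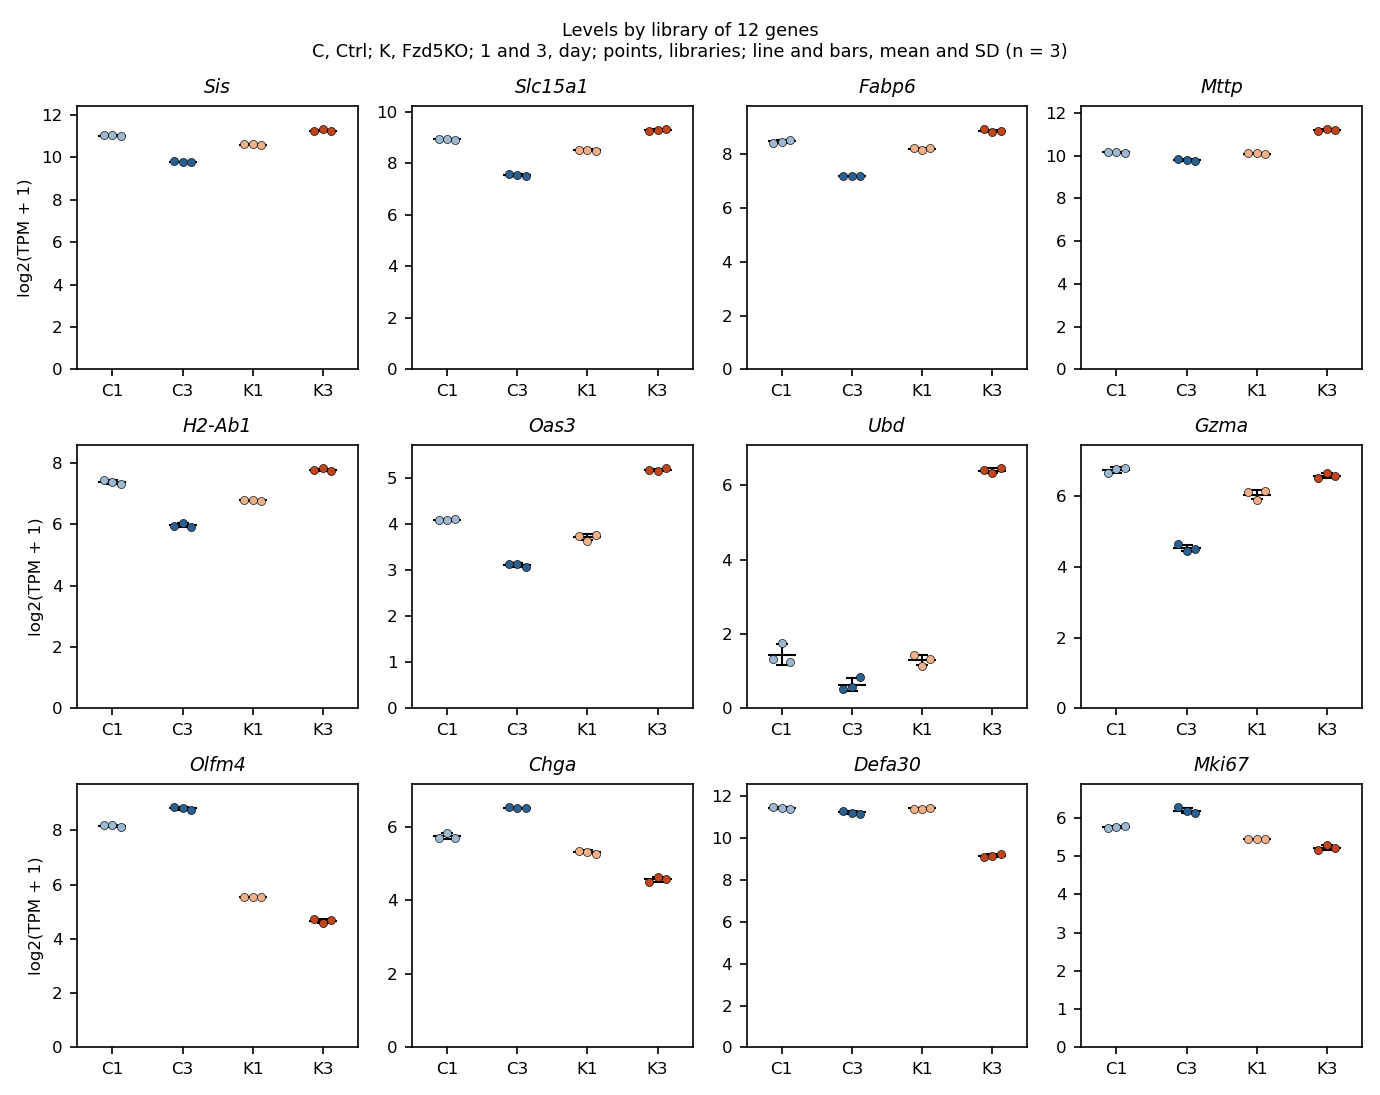
Level of 12 genes in each of the 12 libraries, in log2(TPM + 1), 1 panel a gene, with the 4 groups on the x axis (C, Ctrl; K, Fzd5KO; 1 and 3, the day), points for libraries and lines with bars for the mean and SD (n = 3). Sis is high in Ctrl day 1 and Fzd5KO day 3 and lowest in Ctrl day 3, while Ubd is high only in Fzd5KO day 3 and Olfm4 is low in both knockout groups.

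Genes of fat absorption were higher in the interaction with more of the movement in the knockout. Of 25 members 24 were higher and 1 lower (median 0.94). In Ctrl 3 rose and 15 fell (median −0.19), and in Fzd5KO 24 rose and 1 fell (median 0.81). Mttp, the microsomal transfer protein that loads lipid onto apolipoprotein B (ENSMUSG00000028158, chromosome 3, 138089854 to 138144968, minus strand), stood at 1154, 1153 and 1122 TPM in Ctrl day 1, 903, 878 and 868 in Ctrl day 3, 1111, 1094 and 1070.2 in Fzd5KO day 1 and 2273, 2378 and 2339.5 in Fzd5KO day 3. Fzd5KO day 3 lay far above the other 3 groups, and Ctrl day 3 was the lowest. The interaction was 1.47 ± 0.042 (adjusted p = 8.17e-10), of which the rise in Fzd5KO was 1.09 and the fall in Ctrl 0.37. Apoa4, an apolipoprotein of chylomicrons, was higher in the knockout on both days (0.57 and 1.31), and its interaction was 0.74 ± 0.056. Fabp1, a cytosolic fatty acid carrier, had an interaction of 0.70 ± 0.041, with a fall of 0.50 in Ctrl. Its rise of 0.20 in Fzd5KO was lost with median-of-ratios scaling and turned to −0.04 after rescaling. The exception was Cd36, the fatty acid translocase, at −0.52 ± 0.12 (adjusted p = 0.00503), which fell by 0.74 in Fzd5KO.

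Bile acid and sterol genes were also higher in the interaction. Of 10 genes of bile acid handling 8 were higher and 1 lower (median 1.40). With time 2 rose and 6 fell in Ctrl, and 9 rose in Fzd5KO. Fabp6, the ileal bile acid binding protein, stood at 340.4, 353 and 368 TPM in Ctrl day 1, 146, 146 and 147 in Ctrl day 3, 298, 286 and 299 in Fzd5KO day 1 and 481, 454 and 461 in Fzd5KO day 3, with no overlap between the groups and Ctrl day 3 the lowest. Its interaction was 1.93 ± 0.050 (adjusted p = 5.60e-10).

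In cholesterol synthesis and uptake the larger median change was in the knockout. Of 24 members 21 were higher in the interaction (median 0.64), and 0 were lower. In Ctrl 3 rose and 6 fell (median −0.01), and in Fzd5KO 23 rose and 0 fell (median 0.65). With quantile normalization 3 rose and 10 fell in Ctrl (median −0.12), and with median-of-ratios scaling 1 and 12 (median −0.14), while 19 and 21 rose in Fzd5KO (medians 0.39 and 0.51). Among the called members 13 changed in Fzd5KO only. Insig1, which restrains sterol synthesis and is itself induced by SREBP, stood at 51.1 ± 1.22 TPM in Ctrl day 1, 52.8 ± 1.75 in Ctrl day 3, 48.9 ± 1.54 in Fzd5KO day 1 and 107 ± 1.88 in Fzd5KO day 3. Fzd5KO day 3 stood far above the other 3 groups, which lay close together. Its time change was 0.047 ± 0.038 in Ctrl (adjusted p = 0.368) and 1.11 ± 0.038 in Fzd5KO (adjusted p = 2.44e-09). Hmgcs1, the HMG-CoA synthase of this pathway, had an interaction of 0.97 ± 0.047. Of 11 genes of cholesterol export and esterification 8 were higher and 0 lower (median 0.57).

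Fatty acid synthesis rose with time in both genotypes and did not separate as a class. In Ctrl 14 of its 16 members rose and 2 fell, in Fzd5KO 11 rose and 1 fell, and in the interaction 3 were higher and 4 lower (median 0.07), a median that turned sign with the scaling. Its members went apart. Scd1, the stearoyl-CoA desaturase, stood at 5.07 ± 0.811 TPM in Ctrl day 1, 20.04 ± 0.765 in Ctrl day 3, 5.27 ± 0.456 in Fzd5KO day 1 and 67.5 ± 1.41 in Fzd5KO day 3, rising in both genotypes with an interaction of 1.65 ± 0.13. Fasn, the fatty acid synthase, had an interaction of −0.49 ± 0.10 (adjusted p = 0.00270), with a rise of 0.72 in Ctrl. The desaturase Fads1 had −1.11 ± 0.099, rising by 0.67 in Ctrl and falling by 0.44 in Fzd5KO.

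Among other metabolic classes, glycolysis and hypoxia genes were higher in the interaction in 16 of 24 members and lower in 0 (median 0.45), with 21 rising in Fzd5KO. In Ctrl 9 rose and 3 fell, a balance that turned to 4 and 12 with median-of-ratios scaling and was 7 and 6 with quantile normalization. Of 15 genes of iron and zinc handling 11 were higher and 1 lower (median 0.65). Heph, the ferroxidase hephaestin of iron export, had 1.21 ± 0.050, and the lower member was Tfrc, the transferrin receptor, at −0.57 ± 0.066. Of 29 xenobiotic genes 17 were higher and 6 lower, and 5 rose and 19 fell in Ctrl. The most negative of these was Ces1g, a carboxylesterase (−2.27 ± 0.12), which rose by 1.44 in Ctrl and fell by 0.83 in Fzd5KO.

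The transcription factors of enterocyte identity were mixed: 9 of 18 were higher in the interaction and 4 lower (median 0.19, turning to −0.028 with quantile normalization and −0.013 after rescaling). Maf, a factor of mature enterocytes, stood at 45.1 ± 2.57 TPM in Ctrl day 1, 21.5 ± 0.482 in Ctrl day 3, 33.4 ± 0.511 in Fzd5KO day 1 and 49.7 ± 1.15 in Fzd5KO day 3 and had the largest value among the 4 with the smallest p, 1.59 ± 0.064. In the list of secretory lineage factors Klf4, a factor of goblet and villus cells, was the 1 member called higher, with 1.14 ± 0.058 (a fall of 0.45 in Ctrl and a rise of 0.69 in Fzd5KO). Another 6 of its 16 members were lower, led by Sox4 at −1.30 ± 0.10, which rose by 0.58 in Ctrl and fell by 0.72 in Fzd5KO.

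Another 2 genes were selected by the naming rule because their knockout effect was called with opposite signs on the 2 days, beside Sis and Slc15a1. Tm4sf4, a multi-pass membrane protein, stood at 121, 118 and 112 TPM in Ctrl day 1, 50.5, 49.5 and 50.2 in Ctrl day 3, 74.1, 72.1 and 76.5 in Fzd5KO day 1 and 169, 176 and 172 in Fzd5KO day 3. The knockout was lower by 0.65 at day 1 and higher by 1.76 at day 3, with an interaction of 2.41 ± 0.052 (adjusted p = 2.93e-10). Emp1, an epithelial membrane protein, stood at 68.0, 68.9 and 67.8 TPM in Ctrl day 1, 35.9, 36.1 and 33.6 in Ctrl day 3, 59.8, 57.8 and 57.5 in Fzd5KO day 1 and 138, 140.0 and 137 in Fzd5KO day 3. Its knockout effect was −0.22 at day 1 and 1.94 at day 3, with an interaction of 2.17 ± 0.050. In both genes the 4 groups did not overlap, Ctrl day 3 was the lowest and Fzd5KO day 3 the highest.

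Markers of cells other than epithelial cells, intraepithelial lymphocytes among them, moved with the groups. They are given before the immune genes that such cells also express. In bulk samples fewer cells of a type and less RNA per cell cannot be told apart. Of 21 T cell and intraepithelial lymphocyte markers 20 were tested, and 18 of these were higher in the interaction and 0 lower (median 1.54). This came mainly from Ctrl, where 19 fell and 0 rose (median −1.31), while in Fzd5KO 6 rose and 1 fell (median 0.12, turning to −0.005 with median-of-ratios scaling and −0.093 after rescaling). The summed level of the list was 256 to 283 TPM in Ctrl day 1, 65.8 to 69.7 TPM in Ctrl day 3, 172 to 206 TPM in Fzd5KO day 1 and 235 to 267 TPM in Fzd5KO day 3. No member was listed at 0 in a whole group.

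Gzma, granzyme A of cytotoxic lymphocytes (ENSMUSG00000023132, chromosome 13, 113093825 to 113100981, minus strand), stood at 99.7, 109 and 109 TPM in Ctrl day 1, 23.9, 21.1 and 21.9 in Ctrl day 3, 68.0, 58.8 and 69.5 in Fzd5KO day 1 and 91.0, 99.5 and 95.0 in Fzd5KO day 3. The 3 Ctrl day 3 libraries lay far below all others. Its interaction was 2.74 ± 0.099, with a fall of 2.20 in Ctrl and a rise of 0.54 in Fzd5KO. The T cell receptor subunit Cd3e fell by 0.96 in Ctrl and had a time change of −0.0095 ± 0.15 in Fzd5KO (adjusted p = 0.967). Cd8a, the co-receptor of cytotoxic T cells, fell by 1.38 in Ctrl and had 0.093 ± 0.10 in Fzd5KO (adjusted p = 0.504).

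B and plasma cell markers moved on the other side. Of 12 tested members out of 14, 11 were higher in the interaction (median 1.72), 11 rose in Fzd5KO (median 1.65), and in Ctrl 0 rose and 1 fell (median −0.08). With a filter of at least 5 TPM in 3 libraries only 4 were called higher, since fewer members were tested. A member can pass the filter of 1 TPM in 3 libraries through Fzd5KO day 3 alone, where the list was high. That favours higher calls, and such members were not counted. The summed level was 39.5 to 49.1 TPM in Ctrl day 1, 38.5 to 53.1 TPM in Ctrl day 3, 25.3 to 26.9 TPM in Fzd5KO day 1 and 158 to 193 TPM in Fzd5KO day 3, and 1 member was listed at 0 in each group. Igkc, the constant region of the kappa light chain (ENSMUSG00000076609, chromosome 6, 70726435 to 70726966, plus strand), stood at 24.2, 20.9 and 17.8 TPM in Ctrl day 1, 25.0, 19.8 and 20.9 in Ctrl day 3, 14.0, 11.8 and 11.9 in Fzd5KO day 1 and 74.3, 96.3 and 81.9 in Fzd5KO day 3. Fzd5KO day 3 lay above all other libraries. The time change of Igkc was 0.063 ± 0.13 in Ctrl (adjusted p = 0.732) and 2.64 ± 0.13 in Fzd5KO (adjusted p = 2.55e-08). Igkv6-15, a kappa variable segment, was listed at 0 in all 3 Fzd5KO day 1 libraries and stood at 6.13, 12.9 and 8.09 TPM in Fzd5KO day 3, but reads can be shared between the near-identical variable segments.

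Of 15 tested myeloid markers 12 were higher in the interaction (median 1.28) and 11 rose in Fzd5KO. The count of 12 became 7 without any 1 of the 3 Fzd5KO day 3 libraries. In those fits the filter of at least 1 TPM in at least 3 libraries was applied again. A marker that had passed it only through Fzd5KO day 3, where it was high, was thus no longer tested. The summed level of the myeloid list was 21.8 to 33.9 TPM in the control groups, 26.9 to 29.4 TPM in Fzd5KO day 1 and 51.8 to 63.8 TPM in Fzd5KO day 3. Erythroid genes went the other way: 4 of 5 were lower in the interaction (median −1.01) and 4 rose in Ctrl, while in Fzd5KO 0 were called. Hba-a1, an alpha globin, stood at 18.7 ± 0.741 TPM in Ctrl day 1, 48.5 ± 4.49 in Ctrl day 3, 14.0 ± 2.06 in Fzd5KO day 1 and 16.2 ± 2.36 in Fzd5KO day 3. Its interaction was −1.12 ± 0.16 (adjusted p = 0.000170). Of 11 fibroblast markers 5 were higher, a count that fell to 2 after rescaling. The part of these cells in the results on other genes was not tested.

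**Figure D3:**
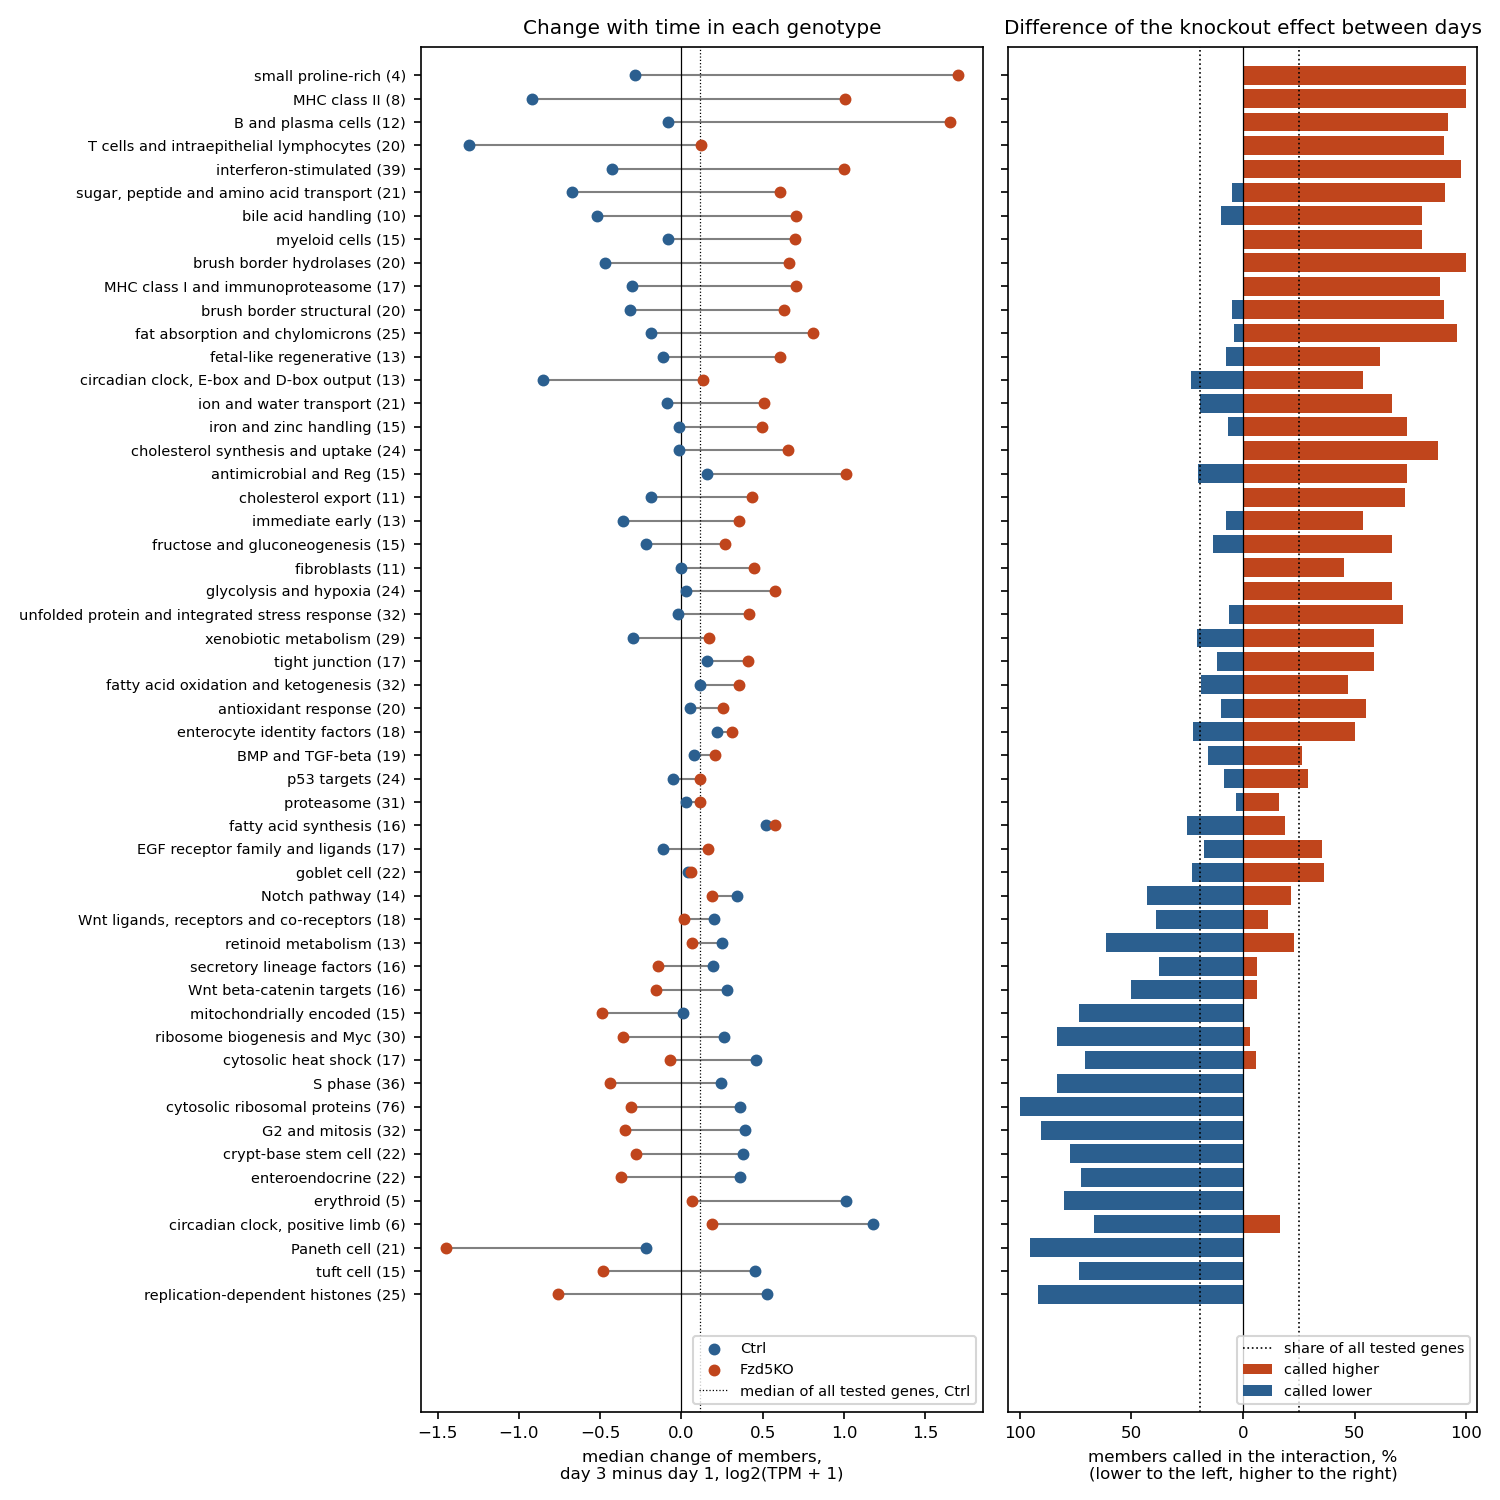
Left, median change with time of each gene list in Ctrl and in Fzd5KO, in log2(TPM + 1), with the number of tested members in brackets; right, percent of members called higher and lower in the interaction, with dotted lines at the shares of all tested genes (25.3% and 19.1%). Brush border and transport lists moved down in Ctrl and up in Fzd5KO, Paneth markers fell in both and further in Fzd5KO, and T cell markers moved in Ctrl.

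Interferon-stimulated genes were nearly all higher in the interaction. Of 39 members 38 were higher in the interaction and 0 lower (median 1.53). In Ctrl 2 rose and 29 fell (median −0.42), and in Fzd5KO 37 rose and 0 fell (median 1.0). Of the called members 28 fell in Ctrl and rose in Fzd5KO, 7 changed in Fzd5KO only and 1 in Ctrl only. T cell marker levels were lowest in Ctrl day 3 and B cell marker levels highest in Fzd5KO day 3, as given above. Their part in these values was not tested. Oas3, a sensor of double-stranded RNA (ENSMUSG00000032661, chromosome 5, 120753098 to 120777661, minus strand), stood at 16.0, 16.1 and 16.5 TPM in Ctrl day 1, 7.77, 7.84 and 7.41 in Ctrl day 3, 12.4, 11.6 and 12.7 in Fzd5KO day 1 and 35.5, 35.0 and 36.2 in Fzd5KO day 3. All 4 groups were separate, with Ctrl day 3 the lowest. Its interaction was 2.46 ± 0.068 (adjusted p = 7.54e-10), of which 1.47 was the rise in Fzd5KO and 0.99 the fall in Ctrl.

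Ubd, a ubiquitin-like modifier induced by interferon gamma and tumour necrosis factor (ENSMUSG00000035186, chromosome 17, 37193892 to 37196095, plus strand), had the largest positive interaction under the naming rule. It stood at 1.52, 2.40 and 1.36 TPM in Ctrl day 1, 0.44, 0.48 and 0.78 in Ctrl day 3, 1.69, 1.21 and 1.51 in Fzd5KO day 1 and 83.4, 79.9 and 86.4 in Fzd5KO day 3. Only the 3 Fzd5KO day 3 libraries were high. Its interaction was 5.90 ± 0.20 (adjusted p = 1.95e-09), with a rise of 5.10 in Fzd5KO and a fall of 0.80 in Ctrl. Ifi44, an interferon-induced cytosolic protein, stood at 2.95, 3.74 and 2.96 TPM in Ctrl day 1, 1.68, 1.32 and 1.37 in Ctrl day 3, 2.26, 2.29 and 2.37 in Fzd5KO day 1 and 28.1, 25.6 and 28.6 in Fzd5KO day 3. Its interaction was 3.88 ± 0.13, again carried by Fzd5KO day 3 (3.10 with time, against −0.78 in Ctrl). Isg15, a ubiquitin-like protein conjugated to targets after interferon, stood at 9.81 ± 0.444 TPM in Ctrl day 1, 7.69 ± 1.23 in Ctrl day 3, 8.21 ± 0.867 in Fzd5KO day 1 and 39.2 ± 1.92 in Fzd5KO day 3. Its interaction was 2.45 ± 0.14 (adjusted p = 1.04e-07).

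Because these members moved together, their promoters are shown. The core of the interferon-stimulated response element, GAAA followed by any 2 bases and a second GAAA, was sought on both strands of the 250 bases before each annotated start (RefSeq promoters, GRCm38.p6). It was present in 18 of the 28 tested members with a promoter in the table (64.3%). Of all tested genes with a promoter 305 of 9672 held it (3.15%), and of all promoters 3.46%. A match is a description of the sequence and not of binding. The windows of Isg15, Oas3 and Ifit3 are printed below in the direction of transcription, with the matched letters in capitals. Read on the other strand the motif is TTTC, any 2 bases and TTTC. They lie at chr4:156200835-156200936 (minus strand), chr5:120777685-120777774 (minus strand) and chr19:34583333-34583456 (plus strand).
Isg15: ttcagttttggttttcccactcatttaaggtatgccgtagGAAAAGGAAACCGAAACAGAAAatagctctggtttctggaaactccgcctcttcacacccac
Oas3: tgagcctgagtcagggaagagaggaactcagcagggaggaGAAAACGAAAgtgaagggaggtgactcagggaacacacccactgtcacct
Ifit3: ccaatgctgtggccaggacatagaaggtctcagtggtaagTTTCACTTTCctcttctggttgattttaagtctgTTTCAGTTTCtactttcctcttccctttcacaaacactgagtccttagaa
Overlapping matches in Isg15 form 1 run of capitals. Ifit3, which binds viral RNA together with its relatives, carries 2 separate matches on the opposite strand and had an interaction of 1.53 ± 0.14 (adjusted p = 3.64e-06).

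Antigen presentation genes moved in the same way. All 8 MHC class II genes were higher in the interaction (median 1.97). In Ctrl 6 fell and 0 rose (median −0.92), and in Fzd5KO 8 rose (median 1.0). H2-Ab1, a class II beta chain (ENSMUSG00000073421, chromosome 17, 34257689 to 34269419, plus strand), stood at 173, 166 and 156 TPM in Ctrl day 1, 60.9, 64.7 and 59.4 in Ctrl day 3, 109, 109.6 and 107 in Fzd5KO day 1 and 214, 223 and 210.3 in Fzd5KO day 3. No 2 groups overlapped, and the knockout was below control at day 1 and above it at day 3. Its interaction was 2.39 ± 0.063 (adjusted p = 5.60e-10). Ciita, the class II transactivator, had a smaller value, 0.53 ± 0.17 (adjusted p = 0.0293), whose call was lost after rescaling (0.37, adjusted p = 0.126). Of 17 class I and immunoproteasome genes 15 were higher (median 1.13), with 1 rising and 13 falling in Ctrl and 17 rising in Fzd5KO. Myeloid and B cells also express class II genes, and their part in this result was not tested.

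Genes of the crypt base moved in the opposite sense: they rose in Ctrl and fell in Fzd5KO. Of 22 stem cell markers 17 were lower in the interaction and 0 higher (median −0.74). In Ctrl 15 rose and 0 fell (median 0.38), and in Fzd5KO 1 rose and 13 fell (median −0.28). Of the called members 11 moved in both genotypes, 3 in Ctrl only and 2 in Fzd5KO only. Their summed level was 708 to 742 TPM in Ctrl day 1, 1015 to 1081 TPM in Ctrl day 3, 321 to 340 TPM in Fzd5KO day 1 and 251 to 264 TPM in Fzd5KO day 3. The knockout was therefore already low at day 1, and the gap widened from both sides.

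Olfm4, a glycoprotein secreted by stem cells at the crypt base (ENSMUSG00000022026, chromosome 14, 79984081 to 80023139, plus strand), stood at 288, 289 and 276 TPM in Ctrl day 1, 457, 447 and 433 in Ctrl day 3, 45.5, 45.8 and 46.0 in Fzd5KO day 1 and 25.7, 23.1 and 24.8 in Fzd5KO day 3. The groups did not overlap. Its knockout effect was −2.61 at day 1 and −4.13 at day 3, with an interaction of −1.52 ± 0.058 (adjusted p = 5.06e-09), of which 0.65 was the rise in Ctrl and 0.88 the fall in Fzd5KO. Ascl2, a transcription factor of these cells, had a mean of 3.86 ± 0.323 TPM in Ctrl day 1, 6.07 ± 0.178 in Ctrl day 3, 1.38 ± 0.284 in Fzd5KO day 1 and 0.42 ± 0.163 in Fzd5KO day 3, with an interaction of −1.28 ± 0.17 (adjusted p = 7.54e-05). Lgr5, a stem cell receptor for R-spondins, stood at 4.61, 4.57 and 3.74 TPM in Ctrl day 1, 5.65, 5.75 and 5.27 in Ctrl day 3, 1.12, 0.75 and 0.82 in Fzd5KO day 1 and 0.63, 1.06 and 0.59 in Fzd5KO day 3. Its interaction of −0.42 ± 0.18 did not pass (adjusted p = 0.0753), although it passed with a pseudocount of 5 (0.0316), after rescaling (0.0342) and without 1 Fzd5KO day 3 library (0.0206).

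Of 16 direct Wnt targets 8 were lower in the interaction and 1 higher (median −0.43), a list that shares Ascl2, Axin2, Lgr5 and others with the stem cell list. After rescaling 13 were lower. Axin2, a feedback inhibitor of the pathway, stood at 37.2, 36.2 and 36.1 TPM in Ctrl day 1, 49.7, 52.2 and 44.0 in Ctrl day 3, 22.9, 19.4 and 19.4 in Fzd5KO day 1 and 15.7, 13.7 and 16.1 in Fzd5KO day 3. It rose by 0.40 in Ctrl and fell by 0.41 in Fzd5KO, with an interaction of −0.81 ± 0.12. Myc, the growth regulator, had nearly equal levels in both genotypes at day 1 (0.042, adjusted p = 0.758) and an interaction of −0.90 ± 0.13. Among 18 ligands, receptors and co-receptors 7 were lower and 2 higher, and with a filter of at least 5 TPM 2 were lower. Of 14 Notch pathway genes 6 were lower and 3 higher. Notch1, a receptor, had −0.88 ± 0.13, and Numb, an inhibitor of Notch, had 0.87 ± 0.067.

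Cell division genes went with the crypt base. Of 36 S phase genes 30 were lower in the interaction and 0 higher (median −0.66), with 18 rising and 1 falling in Ctrl and 26 falling in Fzd5KO. The Ctrl count depends on scaling: it was 10 rising and 2 falling with quantile normalization, and 9 and 1 with median-of-ratios scaling. Of 32 genes of G2 and mitosis 29 were lower (median −0.73), with 25 rising in Ctrl and 26 falling in Fzd5KO. Mki67, a nuclear protein of dividing cells, stood at 51.9, 53.4 and 54.4 TPM in Ctrl day 1, 76.1, 71.2 and 68.5 in Ctrl day 3, 42.8, 42.6 and 42.8 in Fzd5KO day 1 and 34.5, 37.9 and 36.3 in Fzd5KO day 3. It rose by 0.43 in Ctrl and fell by 0.23 in Fzd5KO, with an interaction of −0.66 ± 0.066 (adjusted p = 9.46e-06). Of 25 replication-dependent histone genes 23 were lower (median −1.27), with 22 rising in Ctrl and 22 falling in Fzd5KO, although reads can be split between near-identical copies of these genes. The linker histone Hist1h1a had −1.02 ± 0.048.

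The ribosome followed. All 76 cytosolic ribosomal protein genes tested were lower in the interaction (median −0.66), with 75 rising in Ctrl (median 0.36) and 73 falling in Fzd5KO (median −0.31). Rps24 stood at 796, 795 and 775 TPM in Ctrl day 1, 1043, 1092 and 1003 in Ctrl day 3, 830.4, 821 and 806 in Fzd5KO day 1 and 634, 637 and 638 in Fzd5KO day 3, so that both genotypes were close at day 1 and far apart at day 3. Its interaction was −0.77 ± 0.046 (adjusted p = 1.36e-07). Of 30 genes of ribosome biogenesis 25 were lower and 1 higher (median −0.57). Cytosolic heat shock genes were lower in 12 of 17 members and higher in 1 (median −0.62), with 13 rising and 1 falling in Ctrl and 3 rising and 6 falling in Fzd5KO (1 and 11 after rescaling). Hspd1, a mitochondrial chaperone that this list also holds, had −0.77 ± 0.055. Of 15 mitochondrially encoded genes 11 were lower (median −0.51) and 12 fell in Fzd5KO, while in Ctrl 0 rose and 1 fell.

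The secretory cell types did not move as one. Paneth cell markers were lower in the interaction in 20 of 21 members and higher in 0 (median −1.16), and here the movement was in the knockout. In Ctrl 12 fell and 0 rose (median −0.22), and in Fzd5KO 20 fell (median −1.45). Of the called members 12 fell in both genotypes and 8 in Fzd5KO only. Their sum was 27590 to 29130 TPM in Ctrl day 1, 22807 to 24191 TPM in Ctrl day 3, 24936 to 26007 TPM in Fzd5KO day 1 and 6836 to 7685 TPM in Fzd5KO day 3. The day 1 groups were thus close, and Fzd5KO day 3 lay far below all others.

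Lyz1, the lysozyme of Paneth granules (ENSMUSG00000069515, chromosome 10, 117287797 to 117292868, minus strand), stood at 3134, 3146 and 2899.9 TPM in Ctrl day 1, 2880.0, 2834 and 2759 in Ctrl day 3, 2580.4, 2510.0 and 2590.3 in Fzd5KO day 1 and 1006, 1081 and 1069 in Fzd5KO day 3. Its interaction was −1.17 ± 0.057 (adjusted p = 2.84e-08), with −1.28 in Fzd5KO. Its change of −0.11 in Ctrl turned to 0.26 with quantile normalization. Defa30, an alpha-defensin (ENSMUSG00000074444, chromosome 8, 21134642 to 21135598, plus strand), stood at 2815, 2795 and 2651 TPM in Ctrl day 1, 2526, 2347 and 2304 in Ctrl day 3, 2687, 2698 and 2800.2 in Fzd5KO day 1 and 547, 568 and 594 in Fzd5KO day 3, with an interaction of −2.05 ± 0.062. Because defensin genes are nearly identical in sequence, single values are uncertain. Clps, the pancreatic lipase cofactor colipase, had −2.06 ± 0.14 and a time change of −0.051 ± 0.096 in Ctrl (adjusted p = 0.711). Mmp7, the protease that activates defensins, fell least among the called members (−0.36 ± 0.042).

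Enteroendocrine and tuft cell markers moved in both genotypes. Of 22 enteroendocrine genes 16 were lower in the interaction and 0 higher (median −0.77), with 11 rising and 0 falling in Ctrl and 13 falling and 0 rising in Fzd5KO. Chga, chromogranin A of hormone granules (ENSMUSG00000021194, chromosome 12, 102554969 to 102565028, plus strand), stood at 50.8, 56.5 and 50.7 TPM in Ctrl day 1, 91.1, 90.5 and 90.1 in Ctrl day 3, 39.9, 39.0 and 37.6 in Fzd5KO day 1 and 21.8, 24.1 and 22.9 in Fzd5KO day 3. The groups did not overlap, and Ctrl day 3 was the highest. Its interaction was −1.51 ± 0.071 (adjusted p = 2.37e-08). Gip, an incretin hormone, had −1.45 ± 0.083.

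Of 15 tuft cell genes 11 were lower and 0 higher (median −1.20), with 8 rising in Ctrl and 8 falling in Fzd5KO. Dclk1, a kinase that marks these chemosensory cells (ENSMUSG00000027797, chromosome 3, 55242364 to 55539068, plus strand), stood at 6.42, 7.19 and 5.37 TPM in Ctrl day 1, 12.9, 14.9 and 14.7 in Ctrl day 3, 5.64, 5.63 and 7.10 in Fzd5KO day 1 and 2.63, 2.32 and 1.06 in Fzd5KO day 3. The genotypes overlapped at day 1 and were far apart at day 3. Its interaction was −2.34 ± 0.26 (adjusted p = 2.56e-05). Trpm5, the taste channel of tuft cells, had −1.24 ± 0.21.

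Goblet cell genes had no common direction: 8 of 22 were higher and 5 lower (median 0.0022, which turned to −0.16 with quantile normalization and −0.20 after rescaling, when 5 were higher and 11 lower). Muc2, the main secreted mucin, stood at 2612, 2630.3 and 2463 TPM in Ctrl day 1, 2027, 2057 and 1887 in Ctrl day 3, 1532, 1502 and 1443 in Fzd5KO day 1 and 1601, 1734 and 1626 in Fzd5KO day 3. Its interaction of 0.52 ± 0.064 shrank to 0.08 with quantile normalization (adjusted p = 0.461).

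Clock genes formed a class that moved in the control. The core clock is a feedback loop in which BMAL1 (Arntl) and CLOCK drive genes such as Nr1d1, Dbp and the Per genes, and REV-ERB proteins in turn repress Arntl. Of 13 genes of the E-box and D-box output 7 were higher in the interaction and 3 lower (median 0.70). In Ctrl 4 rose and 7 fell (median −0.85), and in Fzd5KO 6 rose and 2 fell (median 0.13). That balance in Fzd5KO turned under each other scaling, to 2 and 3 with quantile normalization (median 0.018), 3 and 4 with median-of-ratios scaling (−0.0023) and 1 and 4 after rescaling (−0.091). A list named for the positive limb also held the repressors Nfil3 and Cry1, so it does not describe the activators alone. Of its 6 tested genes 4 were lower and 1 higher (median −1.02). In Ctrl 5 rose (median 1.18), and in Fzd5KO 3 rose and 0 fell (median 0.19), against 1 and 1 after rescaling (median −0.051). The hour at which each group was collected is not in the labels, so group and hour of collection cannot be told apart.

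Nr1d1, which encodes REV-ERB alpha (ENSMUSG00000020889, chromosome 11, 98767932 to 98775333, minus strand), stood at 21.3, 21.7 and 20.8 TPM in Ctrl day 1, 0.88, 0.86 and 0.47 in Ctrl day 3, 12.1, 12.6 and 12.5 in Fzd5KO day 1 and 18.1, 18.5 and 17.2 in Fzd5KO day 3. The 3 Ctrl day 3 libraries were under 1 TPM, and the 9 others lay between 12.1 and 21.7 TPM. Its interaction was 4.18 ± 0.12 (adjusted p = 1.06e-09), with a fall of 3.69 in Ctrl. Its rise of 0.50 in Fzd5KO was lost after rescaling (adjusted p = 0.0652). Dbp, a D-box activator (ENSMUSG00000059824, chromosome 7, 45705088 to 45710203, plus strand), stood at 35.8, 35.2 and 34.7 TPM in Ctrl day 1, 3.44, 2.51 and 2.64 in Ctrl day 3, 29.3, 28.2 and 29.8 in Fzd5KO day 1 and 20.7, 24.7 and 23.6 in Fzd5KO day 3. Again Ctrl day 3 stood apart, with an interaction of 2.91 ± 0.12. Arntl (ENSMUSG00000055116, chromosome 7, 113207465 to 113314126, plus strand) was the mirror image, at 7.85, 7.28 and 6.58 TPM in Ctrl day 1, 25.0, 25.7 and 24.1 in Ctrl day 3, 6.82, 7.01 and 7.28 in Fzd5KO day 1 and 7.15, 7.30 and 6.26 in Fzd5KO day 3. Its time change was 1.66 ± 0.073 in Ctrl and −0.026 ± 0.073 in Fzd5KO (adjusted p = 0.808), with an interaction of −1.68 ± 0.10 (adjusted p = 1.75e-07).

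Nfil3, the D-box repressor, and Cry1, a repressor of BMAL1 and CLOCK, had −1.27 ± 0.14 and −0.77 ± 0.11. The other REV-ERB gene, Nr1d2, had 2.40 ± 0.083, and the PAR-domain factor Tef 1.15 ± 0.15. Not all clock genes separated the genotypes. Hlf, the third PAR-domain factor, fell by 0.93 in Ctrl and by 1.14 in Fzd5KO, with an interaction of −0.21 ± 0.23 (adjusted p = 0.489). Npas2, a partner of BMAL1, rose by 0.58 and 0.67, with 0.10 ± 0.15 (adjusted p = 0.645). Per1 had 0.058 ± 0.18 (adjusted p = 0.821), and the signs of Per1 and Npas2 turned after rescaling (−0.13 and −0.098). Per2 had −0.88 ± 0.25, the opposite sign to Per3 at 0.70 ± 0.13. The value of Clock, 0.20 ± 0.060, lost its call with quantile normalization (adjusted p = 0.573) and after rescaling (0.956).

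**Figure D4:**
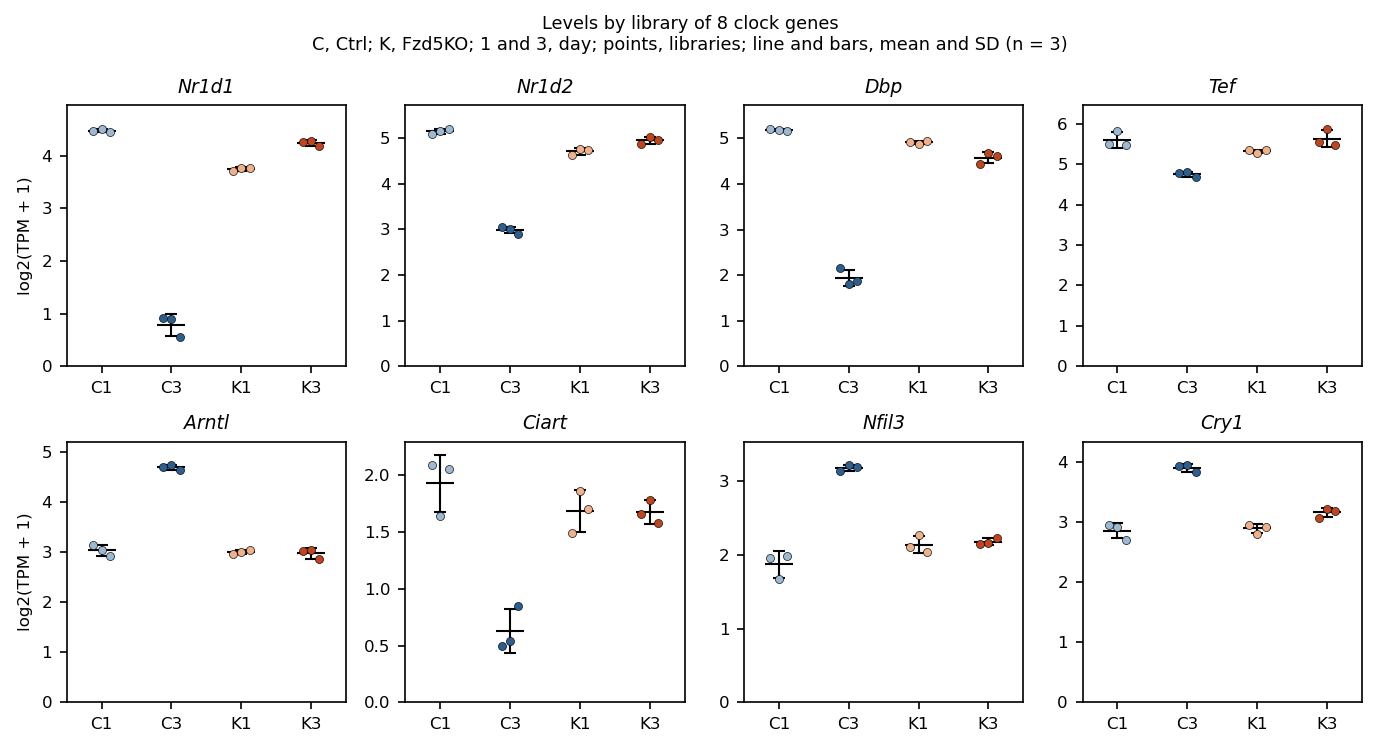
Level of 8 clock genes in each of the 12 libraries, in log2(TPM + 1), 1 panel a gene, with the 4 groups on the x axis (C, Ctrl; K, Fzd5KO; 1 and 3, the day), points for libraries and lines with bars for the mean and SD (n = 3). The 3 Ctrl day 3 libraries stand apart in Nr1d1 (0.47 to 0.88 TPM), Dbp and, upwards, in Arntl, whereas the 3 other groups lie nearer to each other.

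Motifs of the clock were sought in the same promoter windows, and most members lacked each of them. The E-box CACGTG was present in 3 of 10 output genes with a promoter, against 9.82% of tested genes. The D-box TTATGNAA was present in 2 of 10, against 2.32%. The element bound by REV-ERB proteins, TAGGTCA, was present in 1 of 5 genes of the list named for the positive limb, against 2.11%. These counts are small. The windows printed are of Ciart, a repressor of the clock, with 3 E-boxes (chr3:95882229-95882384, minus strand), of Per3 with 2 D-boxes (chr4:151044776-151044910, minus strand) and of Nfil3 with 1 TAGGTCA on the opposite strand, which reads TGACCTA here (chr13:52981040-52981091, minus strand). Capitals mark the matches.
Ciart: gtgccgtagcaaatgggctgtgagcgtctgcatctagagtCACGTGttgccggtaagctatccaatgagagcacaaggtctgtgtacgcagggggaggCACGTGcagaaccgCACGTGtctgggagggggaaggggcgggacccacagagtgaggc
Per3: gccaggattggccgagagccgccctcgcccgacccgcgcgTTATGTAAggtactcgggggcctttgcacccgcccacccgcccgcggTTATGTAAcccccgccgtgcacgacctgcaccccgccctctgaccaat
Nfil3: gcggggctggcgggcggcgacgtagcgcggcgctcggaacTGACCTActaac
Ciart fell by 1.30 in Ctrl and had −0.011 ± 0.15 in Fzd5KO (adjusted p = 0.964), with an interaction of 1.29 ± 0.22. Absence of these letters from the other windows says only that they are not in those 250 bases.

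Genes of injury and repair were mostly higher in the interaction. Of 13 markers of fetal-like regenerating epithelium 8 were higher in the interaction and 1 lower (median 0.71), with 9 rising in Fzd5KO. Ly6a, the surface protein Sca-1, stood at 2.55, 1.74 and 1.96 TPM in Ctrl day 1, 1.63, 0.95 and 1.5 in Ctrl day 3, 1.27, 1.61 and 1.65 in Fzd5KO day 1 and 16.5, 17.3 and 16.7 in Fzd5KO day 3. Only Fzd5KO day 3 was high, with an interaction of 3.22 ± 0.18 (adjusted p = 1.06e-07). Areg, an EGF receptor ligand, and Il33, an alarmin, moved in both genotypes, with 2.52 ± 0.16 and 2.17 ± 0.10. Clu, a marker of revival stem cells, stayed at a few TPM (3.09 ± 0.459 TPM in Ctrl day 1, 3.60 ± 0.386 in Ctrl day 3, 2.45 ± 0.181 in Fzd5KO day 1 and 5.02 ± 0.154 in Fzd5KO day 3), with 0.63 ± 0.14 (adjusted p = 0.00362). The lower member was Krt7, a keratin, at −0.47 ± 0.10. All 4 small proline-rich genes were higher (median 2.07). They share sequence, so single values are uncertain.

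Of 32 genes of the unfolded protein and integrated stress response 23 were higher and 2 lower (median 0.38), and after rescaling 15 were higher. In Fzd5KO 25 rose and 3 fell, and in Ctrl 4 rose and 6 fell. With median-of-ratios scaling 1 rose and 13 fell in Ctrl, and with quantile normalization 3 and 9. Dnajb9, an endoplasmic reticulum chaperone, had 1.04 ± 0.087, and Trib3, a target of ATF4 and CHOP, 2.04 ± 0.19. Of 24 p53 targets 7 were higher and 2 lower (median 0.10). That is 37.5% called in either direction, below the 44.3% of all tested genes. Cdkn1a, the cell cycle inhibitor p21, had 38.3 ± 2.75 TPM in Ctrl day 1, 30.5 ± 1.32 in Ctrl day 3, 41.1 ± 0.930 in Fzd5KO day 1 and 62.5 ± 2.36 in Fzd5KO day 3 and an interaction of 0.91 ± 0.077. Of 15 antimicrobial and Reg genes 11 were higher and 3 lower, and after rescaling 7 were higher. Reg3b, an antimicrobial lectin, rose in both genotypes, by 1.14 in Ctrl and 1.40 in Fzd5KO, and its interaction of 0.26 ± 0.071 lost its call after rescaling (0.054, adjusted p = 0.463). Reg1, a growth-related lectin of the same family, went down (−2.44 ± 0.16), from 13.2 ± 1.77 TPM in Fzd5KO day 1 to 3.89 ± 0.553 TPM in Fzd5KO day 3, while it rose in Ctrl by 0.90.

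Among the largest negative values were genes outside the lists. Ces1d, a carboxylesterase that hydrolyses triglyceride (ENSMUSG00000056973, chromosome 8, 93166068 to 93197838, minus strand), stood at 12.7, 16.0 and 14.5 TPM in Ctrl day 1, 60.3, 59.8 and 60.5 in Ctrl day 3, 13.2, 16.3 and 11.2 in Fzd5KO day 1 and 1.66, 0.79 and 1.08 in Fzd5KO day 3. Ctrl day 3 was high, the day 1 groups overlapped and Fzd5KO day 3 was low, which gave an interaction of −4.74 ± 0.21 (adjusted p = 1.63e-08). BC064078, annotated as a transcribed pseudogene (ENSMUSG00000087150, chromosome 6, 128992952 to 129008040, plus strand), stood at 0.10, 0.10 and 0.13 TPM in Ctrl day 1, 6.94, 7.85 and 7.83 in Ctrl day 3, 5.57, 5.27 and 4.92 in Fzd5KO day 1 and 2.71, 2.75 and 3.07 in Fzd5KO day 3. Only Ctrl day 1 was near 0, so that its knockout effect was 2.49 at day 1 and −1.15 at day 3. Scgb2b17, a secretoglobin, and Tmem267, a membrane protein, also rose in Ctrl and fell in Fzd5KO, with −2.52 ± 0.16 and −2.21 ± 0.14. Defa36 had the most negative value of all, −7.36 ± 2.7 (adjusted p = 0.0476), but its libraries ranged from 0 to 326 TPM within Ctrl day 1, and the call was lost without 9 of the 12 single libraries.

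Among the largest positive values outside the classes above, Npl, an enzyme of sialic acid breakdown, stood at 11.9, 13.4 and 11.8 TPM in Ctrl day 1, 4.24, 3.26 and 3.68 in Ctrl day 3, 5.96, 5.77 and 5.79 in Fzd5KO day 1 and 19.3, 19.6 and 19.9 in Fzd5KO day 3. It fell by 1.5 in Ctrl and rose by 1.59 in Fzd5KO, with an interaction of 3.09 ± 0.11 (adjusted p = 3.22e-09). Aqp3, a water and glycerol channel of the basolateral membrane, had 2.86 ± 0.17, with falls of 1.89 in Ctrl and a rise of 0.97 in Fzd5KO. Cd52, a surface antigen of lymphocytes that is also made by other cells, had 3.08 ± 0.13. It was lowest in Ctrl day 3 and highest in Fzd5KO day 3. The summed myeloid markers, brush border hydrolases and MHC class II genes had the same lowest and highest groups. Summed T cell and B cell markers did not. Which cells made Cd52 was not tested.

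Some classes had small medians whose sign depends on the scaling. Of 19 BMP and TGF-beta genes 5 were higher and 3 lower (median 0.12), and of 17 genes of the EGF receptor family 6 were higher and 3 lower (median 0.04). Of 31 proteasome genes 5 were higher and 1 lower (median 0.07), but the balance depends on the scaling: 0 were higher and 13 lower with quantile normalization (median −0.15), and 0 and 12 after rescaling (median −0.13). The medians of these 3 lists and of p53 targets and fatty acid oxidation (15 of 32 higher, 6 lower) turned sign under at least 1 other scaling. In the stem cell, Paneth, enteroendocrine, tuft, brush border, transport, fat absorption, bile acid, MHC, interferon, cell division, histone and ribosomal protein lists the median interaction kept its sign under all 3 other scalings.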

How the data were processed

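The authors deposited 1 table of TPM values for 55421 genes and 12 libraries, with 0 columns of other samples. Per the labels' protocols, RNeasy columns gave the total RNA and a stranded TruSeq total RNA kit the libraries. Tools named in the submitters' processing notes are bcl2fastq 2.18, STAR 2.7.3a and RSEM, with mm10 as the build. Annotation and strand setting: not given in the sources used here.

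Deposited TPM values were turned here into log2(TPM + 1) and tested with limma 3.58.1 in R 4.3.3. Genes that reached 1 TPM in 3 or more libraries entered a model of 4 group means, 8 residual degrees of freedom and an empirical Bayes intensity trend. The procedure was tested on simulated data with independent noise and a small share of changed genes. That setting does not test the effect of scaling or of many changed genes. Symbols and coordinates came from GENCODE mouse release M21. Python 3.11.15 with matplotlib 3.10.9 made the figures.

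The comparison and the 56 gene lists were chosen with earlier results of these data known. Lists are described by counts of called members and by medians (53 lists with at least 4 tested members), with no test. Named were the 15 largest positive and 15 largest negative called interactions with at least 5 TPM in the highest group, leaving out predicted and small RNA genes. Also named were the called members of each list with the smallest p, at most 4,, a fixed set of key genes whatever their result, and the 4 genes with called effects of opposite sign and the smallest p. The symbols counted as small RNA were widened after values were seen. Another 21 genes (Isg15, Ifit3, Per1, Per2, Per3, Ciart, Npas2, Clock, Hlf, Lct, Cd36, Slc1a1, Baiap2l1, Mmp7, Trpm5, Ciita, Cd3e, Cd8a, Krt7, Fasn and Tfrc), the 4 motifs and the printed windows were chosen after values were seen.

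The alternatives tried were a pseudocount of 0.1 or 5, no filter or one of 5 TPM, quantile normalization, median-of-ratios scaling, rescaling without mitochondrial, predicted, small RNA and the 20 most abundant genes, no trend, array weights, a replicate block, only the libraries compared, and each of the 12 libraries left out in turn. Some results are not reported here.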

Additional observations from a re-analysis of the deposited data

Results flagged for a closer look

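Each result here is listed because the knockout effect at day 3 differed from that at day 1 by the limma test of the difference itself. They are 3665 genes with a higher and 2769 with a lower effect, and the genes named for size, for effects of opposite sign or as fixed key genes. Called members of the gene lists in the report meet the same condition and are not repeated. Values are interactions in log2.

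Among immune and interferon genes the values were 5.90 for Ubd, 3.88 for Ifi44, 3.25 for Igkv6-15, 3.08 for Cd52, 3.00 for H2-Q7, 2.94 for Oas1g, 2.89 for Trac and 2.89 for Ccl5. Of these Igkv6-15 lay between 0 and 1.12 TPM outside Fzd5KO day 3, whereas Trac and Ccl5 were lowest in Ctrl day 3. Genes of absorption, metabolism and the cell membrane had 3.09 (Npl), 2.87 (Slc2a7), 2.86 (Aqp3), 2.41 (Tm4sf4), 2.17 (Slc15a1), 2.17 (Emp1), 1.91 (Sis), 1.21 (Alpi), 0.74 (Apoa4) and 0.70 (Fabp1). Genes of injury and cell cycle arrest had 3.22 (Ly6a), 2.86 (Sprr2a3), 0.91 (Cdkn1a), 0.63 (Clu) and 0.26 (Reg3b), and the goblet cell mucin Muc2 had 0.52. Clock genes had 4.18 (Nr1d1), 2.91 (Dbp) and −1.68 (Arntl), and in each the Ctrl day 3 libraries stood apart from the other 9.

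Negative values were those of Defa36 (−7.36), Ces1d (−4.74), BC064078 (−3.64), Defa-ps7 (−2.54), Scgb2b17 (−2.52), Reg1 (−2.44), Hist1h2ah (−2.37), Dclk1 (−2.34), Hist1h3h (−2.28), Ces1g (−2.27), Defa23 (−2.21), Tmem267 (−2.21), Tmem254c (−2.06), Clps (−2.06) and AY761184 (−2.06). In Ctrl day 1, Defa36 ranged from 0 to 326 TPM, Hist1h2ah from 3.25 to 14.2 TPM and Hist1h3h from 9.93 to 61.1 TPM. Defa, histone, H2-Q, Oas1, Sprr2a and Igkv genes have near-identical copies, so their single values are uncertain. Crypt, Paneth and secretory genes had −1.52 (Olfm4), −1.51 (Chga), −1.28 (Ascl2), −1.17 (Lyz1), −0.81 (Axin2) and −0.66 (Mki67), and Fzd5 itself had −0.24.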

How the results depend on the processing

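Some genes first chosen after values were seen were later dropped from the naming. They are not in the counts that follow, and some of them turned sign under an alternative. Of the interactions of single named genes over all alternatives, 5755 kept direction and side of the threshold, 83 lost the call, 3 gained it and 8 turned sign. The turns were Mcpt1 with a pseudocount of 5 (0.087), Fbln1 with quantile normalization (−0.031), Per1 and Npas2 after rescaling (−0.13 and −0.098), and each of these 2 genes with single libraries left out (Per1 from −0.052 to 0.19, turning in 3 cases, and Npas2 from −0.016 to 0.19, turning in 1). Calls lost with a library left out were those of Defa36, Mcpt1, Fzd5, Hist1h3h, Hba-a2, Dcn, Ciita, Tmem254c and Baiap2l1.

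The counts that moved by over 1.5 times did so mainly with scaling, and the cause was not tested. With quantile normalization, changes in Fzd5KO only and Ctrl only were 999 and 598 for higher and 1283 and 609 for lower genes. Time calls were 2226 higher in Ctrl and 3040 higher and 2855 lower in Fzd5KO, and day 1 calls 851 higher and 920 lower. With median-of-ratios scaling the pattern counts were 1225, 571, 1382 and 514, time calls 1774 higher and 2552 lower in Ctrl and 2792 lower in Fzd5KO, and day 1 calls 1277 and 911. Rescaling gave 4548 lower interactions, pattern counts of 912, 462 and 1715, with 1484 lower genes moving oppositely, time calls of 2651 and 3858 in Fzd5KO and day 1 calls of 715 and 1206. The 5 TPM filter, which tests fewer genes, left 125 higher genes changing in Ctrl only. The share of calls that were higher was 69.4% in the Ctrl time contrast (49.2%, 41.0% and 62.2% under the 3 scalings), 76.6% in Fzd5KO (51.6%, 55.9%, 40.7%), 8.53% for the knockout at day 1 (48.1%, 58.4%, 37.2%) and 38.7% at day 3 (47.5%, 51.8%, 31.5%). Of list counts 141 moved and 2179 did not, and of list medians 190 moved by more than the spread between replicates and 970 did not.

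With single libraries left out, interaction counts were 3360 to 3636 higher and 2363 to 2778 lower. For higher genes 1646 to 2002 changed in Fzd5KO only, 201 to 268 in Ctrl only and 984 to 1146 oppositely; for lower genes 397 to 601, 748 to 1105 and 643 to 783. Time calls were 2619 to 3643 and 1321 to 1561 in Ctrl and 4430 to 5001 and 1229 to 1527 in Fzd5KO. Knockout calls were 218 to 330 and 1964 to 3345 at day 1, the lowest without Ctrl day 1 replicate 2, and 3190 to 3527 and 4876 to 5584 at day 3. Same-numbered libraries showed no strong pairing, with 18 correlations of −0.069 to 0.093, against −0.092 to 0.071 for other numbers. Of the 12 libraries 7 were closest to one of their own number, a count that was not set against chance. With the replicate block the interaction counts were 3631 and 2718. A fit on only the 2 groups compared gives no interaction. Depth is unknown, so its limit cannot be stated.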

Other observations

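Beyond the gene lists, 23 gene families were looked at, all chosen after values were seen, so their counts are a description. Some families of protein and RNA production followed the ribosome. Of 78 mitochondrial ribosomal proteins 35 were lower in the interaction and 0 higher (median −0.25), with a median time change of 0.20 in Ctrl and −0.066 in Fzd5KO. Of 20 small nuclear ribonucleoproteins of the spliceosome 17 were lower (median −0.57). All 8 subunits of the CCT chaperonin, which folds actin and tubulin, were lower (median −0.46). Of 24 translation initiation factors 15 were lower (median −0.37), and of 27 RNA polymerase subunits 12 (median −0.41). No member of these families was called higher. Related families were mixed. Of 33 DEAD-box helicases 9 were lower and 5 higher (median −0.23), and of 19 nuclear pore genes 7 were lower and 2 higher (median −0.30).

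Some families of membrane traffic and the cell surface went the other way. Of 45 Rab GTPases, which direct vesicles, 28 were higher and 3 lower (median 0.37). Of 28 Sec and coat proteins of the secretory route 20 were higher and 0 lower (median 0.62), and of 16 subunits of the proton pump V-ATPase 13 were higher and 0 lower (median 0.50). Of 10 annexins 7 were higher (median 0.72). All 6 butyrophilin-like genes, which hold gamma delta T cells in the epithelium, were higher (median 0.92), as were all 7 guanylate-binding proteins tested (median 1.25), a family that overlaps the interferon list. Nuclear subunits of respiratory complex I had no common direction, with 2 of 36 higher and 4 lower (median −0.041). These families were not recomputed under the other scalings.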
